A study of Mus musculus with 4 samples.

Results

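The 38 genes described here are antiviral effectors of the interferon response, taken as a list of gene symbols and grouped by role into ISG15 conjugation, membrane restriction, nuclear bodies and other effectors. All 38 were found among the 55359 gene identifiers counted, and all 38 were among the 14637 genes with enough counts to be tested. They were measured by bulk RNAseq in T8 cells, a leukemia line (pB-ALL in the labels) grown out of the primary tumor that an Irf4-/- mouse had developed. The comparison asked which genes change when the transcription factor IRF4 is put into cells of this genotype.

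The 4 libraries were all made from Irf4-/- T8 cells collected 24 h after spin transduction with a retrovirus in the presence of polybrene. The 2 EV-RV libraries came from cells given the empty vector, which codes for GFP alone, and the 2 IRF4-RV libraries from cells given the vector for GFP and IRF4. All groups therefore shared the Irf4-/- genotype and contact with a retrovirus, and no group was left without virus. They also shared what the line carries besides. The paper reports *Jak3* mutations in every tumor it tested, T8 included, and *Jak1* mutations at low frequency in T8. Its Irf4-/- mice had a C57BL6 background, and the line was established in medium with a source of IL7. The part of these mutations and of IL7 in the values below was not tested. T8 is a single tumor-derived line that was first kept on a layer of ST2 stromal cells, and whether GFP+ cells were sorted before RNA was taken is not given in the sources used here. The protocol text of the labels speaks of T11 cells, whereas titles and tissue name T8, and the libraries are treated as T8. In bulk RNA, a smaller number of expressing cells and less RNA per cell cannot be told apart. The paper describes the sequenced cells as those still viable at 24 h and reports apoptosis after IRF4 re-expression. The part of cell loss in the values below was not tested. The p-values measure the spread between these 4 libraries alone.

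The libraries held between 31230223 and 37817752 counts, and 3 counts corresponded to between 0.0823 and 0.0951 CPM (counts relative to library size, after TMM scaling), a limit that covers counting error only. *Irf4* itself was counted 8070 and 7600 times with EV-RV against 95578 and 90693 times with IRF4-RV, and reads from the vector and from the locus were not separated. The EV-RV vector holds no *Irf4*, so RNA of this gene was present at 241 CPM (mean of 2 libraries) in cells labelled Irf4-/-, and these counts do not check which part of the gene is missing. Of 14 markers of B progenitors, *Cd79a*, *Cd79b*, *Pax5* and *Ebf1* were counted at least 3316 times in every library, whereas *Rag1* and *Rag2* had 0 or 1 counts in each. Of the 11 that could be tested, *Igll1* (log2 fold change -1.30), *Vpreb1* (-1.49), *Dntt* (-1.55) and *Il7r* (-0.29) fell and *Spn* (0.84) rose, with edgeR adjusted p up to 0.0686. Markers of T and NK cells summed to between 1.18 and 1.59 CPM in every library, and those of plasmacytoid dendritic cells to between 0.919 and 1.29 CPM. The 11 macrophage markers summed to 1.50 and 1.49 CPM with EV-RV against 8.59 and 7.55 CPM with IRF4-RV, most of it *Mrc1*, and the 11 granulocyte markers to 7 and 7 against 74 and 69 counts, with IRF4-RV mostly *Ly6g*. The part of these other markers in the results below was not tested. Stromal markers, at 54.3 and 103.2 CPM with EV-RV against 53.6 and 247.3 CPM with IRF4-RV, set the second IRF4-RV library apart from the other libraries.

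Interferons bind receptors at the cell surface whose kinases phosphorylate STAT proteins, and these join IRF9 to form a complex that binds a short element, the ISRE, in front of its target genes. The proteins made from such interferon-stimulated genes act on viruses at many steps: they block entry and budding, degrade or edit RNA, deplete nucleotides, halt translation and tag proteins with the ubiquitin-like modifier ISG15. IRF4 belongs to the same protein family as IRF9, and in B cells it binds either ISRE-like letters or, together with ETS factors, a composite ETS-IRF element.

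Of the 38 genes, 33 were higher and 1 was lower with IRF4-RV at an edgeR adjusted p under 0.1, and 4 were not called. Of all genes tested, 16.0% were called higher and 13.7% lower, or 29.7% in either direction. In the list, 30 genes rose by more than 1 on the log2 scale and 12 by more than 2, against 4.50% and 1.69% of all genes tested. The median log2 fold change of the list was 1.43, beside 0.0073 over all genes tested. Because the list was chosen with earlier results of these data known, its values beside those of all genes are a description only. In 33 of the 38 genes both IRF4-RV libraries lay above both EV-RV libraries, which was true of 31.3% of all genes tested, and in 2 genes both lay below, true of 29.9%. Among the genes called, the largest edgeR adjusted p was 0.0324. The 38 genes together held 0.161% and 0.159% of the counts of the EV-RV libraries and 0.362% and 0.373% of those of the IRF4-RV libraries. The gene that fell was *Ifi27*, and the genes not called were *Ifitm1*, *Ifitm2*, *Ifitm3* and *Ifi30*.

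**Figure D1:**
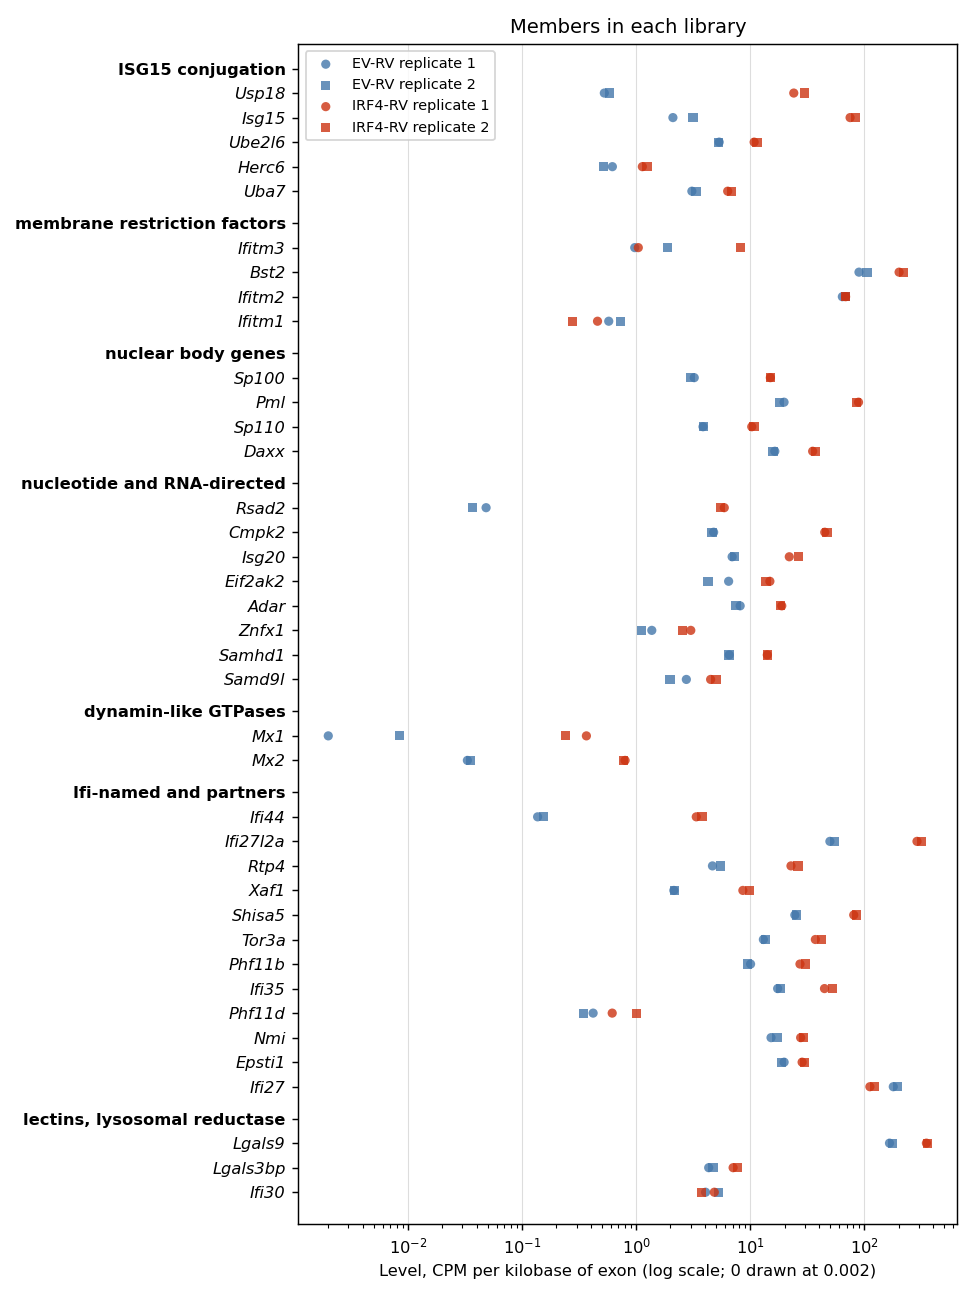
Level of each of the 38 genes in each library, in CPM per kilobase of exon on a log axis, by role; circles are replicate 1, squares replicate 2, blue EV-RV and red IRF4-RV. The red points lie to the right of the blue ones in 33 genes, whereas in *Ifi27* and *Ifitm1* they lie to the left.

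The levels before and after IRF4-RV were set side by side per length of exon, since longer genes collect more reads. With EV-RV, *Ifi27* was the highest of the list at 188 ± 12.4 CPM per kb (SD, n = 2), followed by *Lgals9* at 172 ± 7.27 and *Bst2* at 97.8 ± 11.2 CPM per kb. The first and second of this order differed by less than their SDs added together. Even so, both *Ifi27* libraries (179.5 and 197.0 CPM per kb) lay above both *Lgals9* libraries (166.3 and 176.6 CPM per kb). *Bst2* lay below both genes by more than the SDs added together. With IRF4-RV, *Lgals9* came first at 354 ± 5.49 CPM per kb, *Ifi27l2a* next at 305 ± 21.3 and *Bst2* after it at 210 ± 12.1, and *Ifi27* had dropped to 118 ± 7.85 CPM per kb. *Isg15* moved from rank 26 to rank 7 of the 38 genes, *Usp18* from 33 to 16 and *Rsad2* from 36 to 28. *Mx1* was the lowest of the list in both groups. The largest changes were among genes that started low, though not all such genes rose much. The 10 genes lowest per kb with EV-RV, at up to 1.42 CPM per kb, had a median log2 fold change of 3.10. No gene lay near that median. *Ifitm1*, *Herc6*, *Phf11d*, *Znfx1* and *Ifitm3* were at 1.71 or below, and *Mx2*, *Ifi44*, *Usp18*, *Mx1* and *Rsad2* at 4.49 or above. The 10 highest, at 16.2 CPM per kb or more, had a median of 1.08. Over the 38 genes, Spearman's rho between the level with EV-RV and the log2 fold change was -0.37, a description only, since both use the EV-RV values. Replicates differed by a median of 0.12 with EV-RV and 0.13 with IRF4-RV on the log2 scale, far below the changes of most members.

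**Figure D2:**
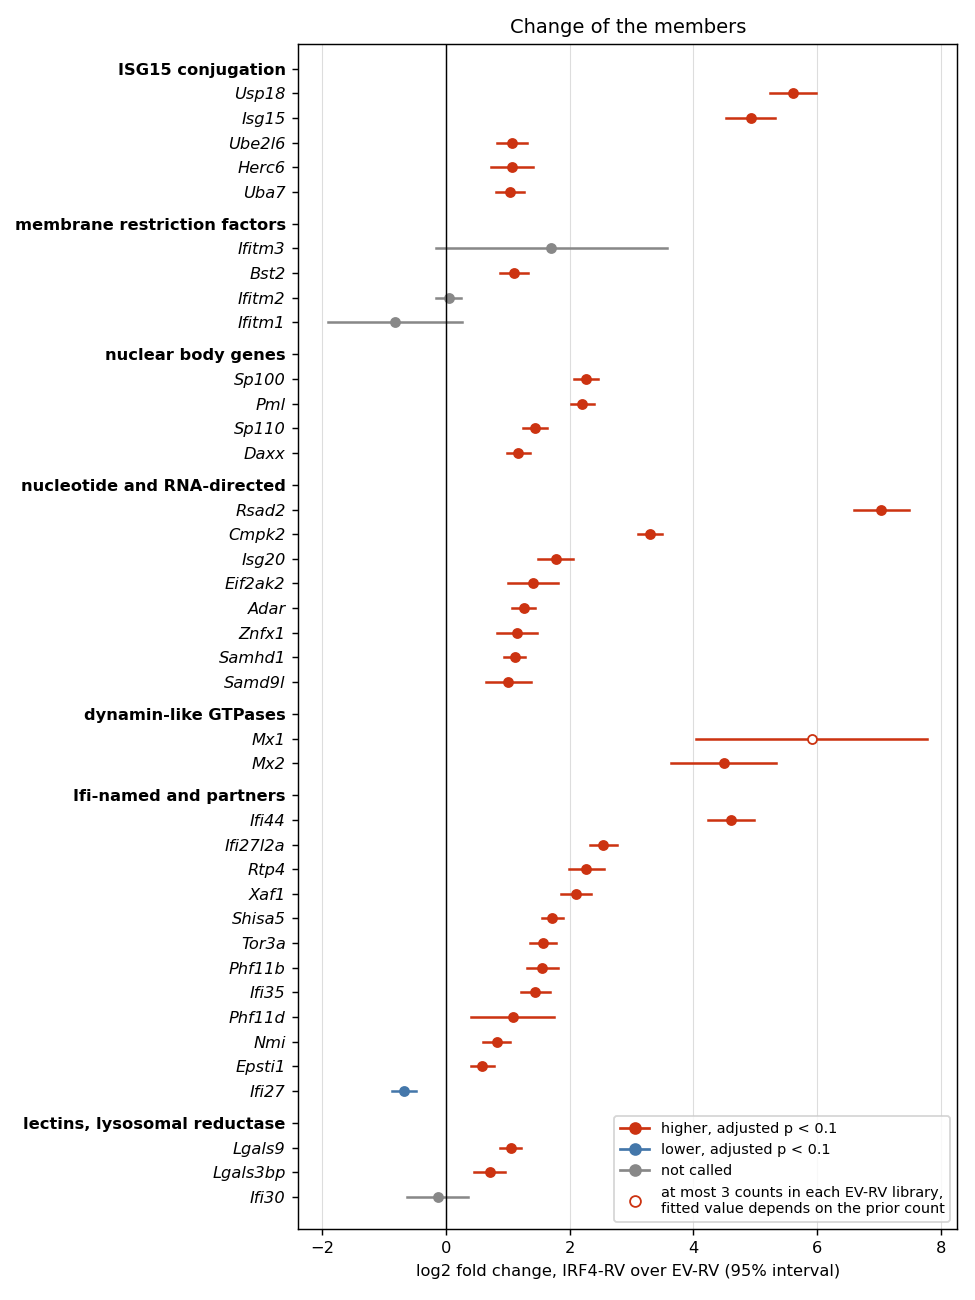
Log2 fold change of each of the 38 genes, IRF4-RV over EV-RV, with its 95% interval from edgeR; red genes were called higher, the blue one lower, grey ones not called, and the hollow point (*Mx1*) depends on the prior count because at most 3 counts were seen in each EV-RV library. The intervals of *Rsad2*, *Usp18*, *Isg15*, *Ifi44* and *Mx1* lie above 4, and those of *Ifitm1*, *Ifitm2*, *Ifitm3* and *Ifi30* include 0.

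Promoter windows from RefSeq (GRCm38.p6, 250 bases before to 50 bases after the gene start) were available for 31 of the 38 genes and were searched on both strands for 3 short elements. The windows of 12 of the 31 genes (38.7%) held the ISRE letters GAAANNGAA, beside 9.76% of all 27025 genes with a window. With a further A required after these letters, the shares were 29.0% and 3.99%. In the bases before the start alone, 7 genes (22.6%) held the ISRE letters, beside 8.18% of all genes. The ETS-IRF composite letters GGAANNGAA were found in 7 genes (22.6%), beside 9.42%, and the GAS letters TTCNNNGAA, those read by STAT dimers, in 8 (25.8%), beside 9.55%. Before the start alone, the composite was in 5 genes (16.1%), beside 8.01%, and the GAS letters in 4 (12.9%), beside 8.13%. By window, their shares were 20.5% beside 8.24% for the composite and 18.2% beside 8.30% for GAS. A gene with several RefSeq starts was counted if any of its windows held the letters, and by window the ISRE share was 27.3% of the 44 windows of members beside 8.56% of all windows. The elements can overlap each other, and a match describes the letters and is not evidence of binding. Of the genes in the list, 10 of 12 with a match, 17 of 19 with a window and no match, and 6 of 7 without a window were called higher. The stretches below are those of the 6 genes called higher with the largest rise among the genes with an ISRE match, in the direction of transcription. Capitals mark the ISRE letters or their reverse complement, and where the match lies across or after the start it is shown with 4 bases on each side.
*Rsad2*, chr12:26456453-26456591, minus strand: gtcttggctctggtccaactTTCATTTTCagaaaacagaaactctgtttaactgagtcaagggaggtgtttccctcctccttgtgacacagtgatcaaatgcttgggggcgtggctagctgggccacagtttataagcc
*Isg15*, chr4:156200819-156200918, minus strand: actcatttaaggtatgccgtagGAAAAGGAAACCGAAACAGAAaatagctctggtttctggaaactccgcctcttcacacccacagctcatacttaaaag
*Ifi44*, chr3:151749901-151749917, minus strand: tctcTTCATTTTCtaca
*Shisa5*, chr9:109054889-109054911, plus strand: aagaTTCGATTTCCTTTTCtttg
*Phf11b*, chr14:59341331-59341430, minus strand: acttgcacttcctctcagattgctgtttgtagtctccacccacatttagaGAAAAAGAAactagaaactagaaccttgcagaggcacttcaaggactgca
*Eif2ak2*, chr17:78882536-78882558, minus strand: ccggGAAAACGAAACAGAAgaga

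In *Isg15* the letters occurred 3 times in an overlapping run that opened at position -78 from the start. *Rsad2* had 1 match, in reverse, which opened at position -119. The single match of *Ifi44* lay across the start and that of *Phf11b* opened at position -50, whereas the pairs of matches in *Shisa5* and *Eif2ak2* lay after a start. For *Shisa5*, which has 5 RefSeq starts, that start is the last and lies inside the gene (chr9:109038565-109057777, plus strand), and the windows at the other starts held no ISRE letters.

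**Figure D3:**
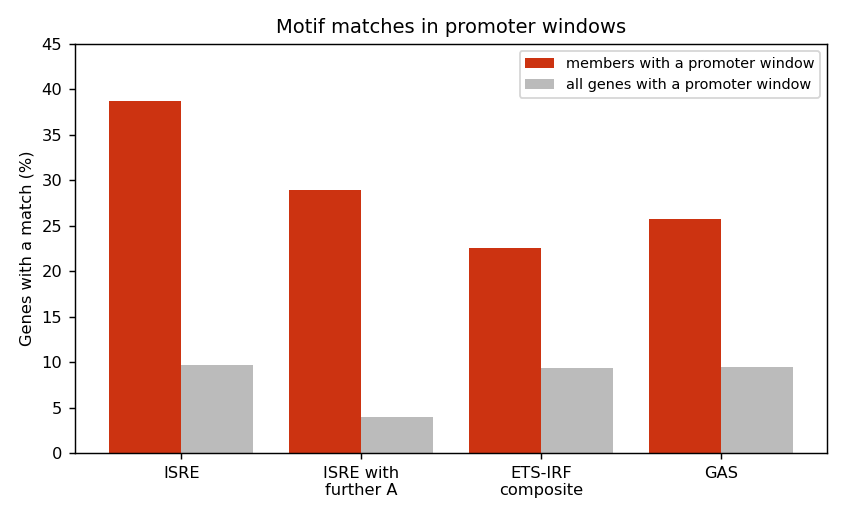
Share of genes, in percent, whose RefSeq promoter window held each element; red bars are the 31 members with a window and grey bars all 27025 genes with a window. The red bar stands above the grey bar for each element, 38.7% beside 9.76% for the ISRE.

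ISG15 is attached to proteins by a cascade of an activating enzyme, UBA7, a conjugating enzyme, UBE2L6, and a ligase, which in mice is HERC6, and it is removed by the protease USP18. All 5 genes of this cascade rose, and the modifier and its protease rose far more than the enzymes that attach it. *Isg15* (chr4:156199424-156200818, minus strand) was counted 53 and 75 times with EV-RV against 1923 and 2300 times with IRF4-RV, or 1.59 and 2.38 against 56.7 and 63.1 CPM. Both IRF4-RV libraries were far above both EV-RV libraries, a rise of 30.2-fold (log2 fold change 4.92, SE 0.169, edgeR adjusted p = 2.35e-06). *Usp18* (chr6:121245906-121270917, plus strand), which also dampens signaling at the type I interferon receptor, went from 49 and 51 to 2277 and 3023 counts. Its rise of 48.7-fold (log2 fold change 5.60, SE 0.161, edgeR adjusted p = 1.38e-06) was the second largest of the members with over 3 counts in an EV-RV library. *Uba7* was at 20.6 and 22.4 CPM with EV-RV against 42.5 and 45.6 CPM with IRF4-RV, a log2 fold change of 1.03 (SE 0.0955, edgeR adjusted p = 0.000262). *Ube2l6* went from 10.7 and 10.6 to 21.6 and 22.9 CPM, a log2 fold change of 1.07 (SE 0.102, edgeR adjusted p = 0.000299). *Herc6* went from 5.75 and 4.79 to 10.5 and 11.6 CPM, a log2 fold change of 1.07 (SE 0.145, edgeR adjusted p = 0.00169). The groups did not overlap in any of the 5 genes. The 95% intervals of the 3 conjugation enzymes ended at 1.41 at the highest, and those of *Isg15* and *Usp18* began at 4.53 and 5.23. Per length, *Isg15* went from 2.62 ± 0.739 to 79.3 ± 5.98 CPM per kb (SD, n = 2 each). *Usp18* overlaps *Gm44148* on the opposite strand, and *Uba7* and *Herc6* overlap *Gm20661* and *Gm45193* on the same strand, so their counts are less certain.

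The membrane restriction factors were the role in which most genes were not called: 1 of 4 was called higher and 0 lower in edgeR (0 also at an unadjusted p under 0.05 and in DESeq2). *Bst2*, which encodes tetherin and holds budding virus particles at the cell surface, was at 81.1 and 95.5 CPM with EV-RV against 182 and 198 CPM with IRF4-RV. Its groups did not overlap, and the log2 fold change was 1.11 (SE 0.0981, edgeR adjusted p = 0.000217). The IFITM proteins act earlier, where the virus fuses with the membrane of the cell. *Ifitm2* was at 42.1 and 44.8 CPM with EV-RV against 44.9 and 44.8 CPM with IRF4-RV. The log2 fold change of *Ifitm2* was 0.046, with a 95% interval from -0.15 to 0.24 (edgeR adjusted p = 0.749), which does not reach the rise of *Bst2*. The estimate was -0.044 when only library size was used for scaling. *Ifitm1* was low throughout, at 21 and 25 counts with EV-RV against 17 and 11 with IRF4-RV. Both IRF4-RV libraries lay below both EV-RV libraries, and the log2 fold change of -0.82, with an interval from -1.90 to 0.26, was not called (edgeR adjusted p = 0.258).

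*Ifitm3* (chr7:141009586-141010770, minus strand) was counted 22 and 40 times with EV-RV against 24 and 202 times with IRF4-RV. The first IRF4-RV library lay between the EV-RV libraries, and the second was 7.83 times the first in CPM. The log2 fold change of 1.71 was not called (95% interval -0.17 to 3.58, edgeR adjusted p = 0.180). Without the second IRF4-RV library the log2 fold change was -0.43, and without the first it was 2.51. Each of these fits had 1 IRF4-RV library left and so cannot measure the spread within that group. Stromal markers followed the same libraries: the 11 markers summed to 1814 and 3258 counts with EV-RV and to 1816 and 9011 with IRF4-RV. All 8 of the 11 that could be tested were higher in the second than in the first IRF4-RV library, by 3.52 to 6.39 times, and 0 of the 8 were called between the groups in edgeR (0 also at an unadjusted p under 0.05 and in DESeq2). Among the others, *Lum* and *Dcn* were at 0 to 2 counts in every library. *Postn* had 4 and 6 counts with EV-RV against 10 and 32 with IRF4-RV, so both IRF4-RV libraries lay above both EV-RV libraries. The part of stromal RNA in the *Ifitm3* values was not tested. By comparison, the 33 genes called higher had ratios of the second to the first IRF4-RV library from 0.653 to 1.62. The *Ifitm* genes lie beside each other on chromosome 7 and are close paralogs, so reads could have been shared among them, and *Ifitm2* overlaps *Gm45717*.

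**Figure D4:**
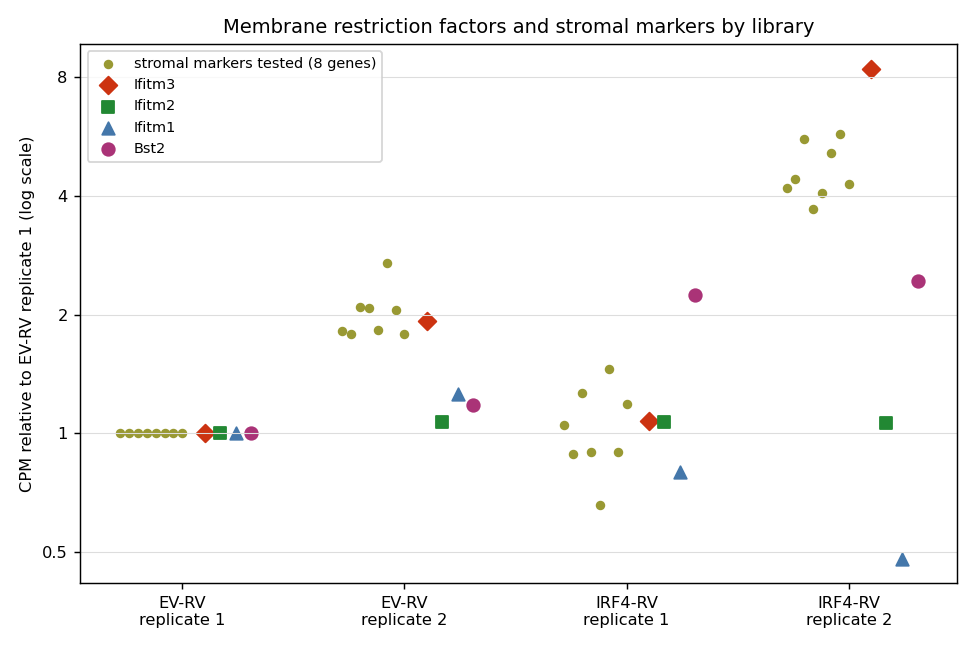
CPM of the 4 membrane restriction factors and of the 8 stromal markers tested in each library, relative to EV-RV replicate 1, on a log axis. *Ifitm3* and the stromal markers are highest in IRF4-RV replicate 2 and next highest in EV-RV replicate 2, whereas *Bst2* is higher in both IRF4-RV libraries and *Ifitm2* stays near 1.

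PML builds nuclear bodies, in which SP100, SP110 and the histone chaperone DAXX gather and silence incoming viral genomes. All 4 genes rose, with a median log2 fold change of 1.82. *Pml* (chr9:58218076-58249786, minus strand) went from 110.3 and 101.1 CPM to 495.7 and 476.8 CPM, a rise of 4.60-fold (log2 fold change 2.20, SE 0.0799, edgeR adjusted p = 2.66e-06). *Sp100* went from 24.4 and 22.7 to 113.4 and 112.9 CPM, a rise of 4.80-fold (log2 fold change 2.26, SE 0.0843, edgeR adjusted p = 2.84e-06). In both genes the IRF4-RV libraries were close to each other and far above the EV-RV libraries. *Sp110*, which lies 51170 bases from *Sp100* on chromosome 1, went from 26.1 and 26.5 to 69.9 and 73.3 CPM (log2 fold change 1.44, SE 0.0843, edgeR adjusted p = 2.81e-05). *Daxx* went from 51.8 and 49.9 to 111.1 and 117.7 CPM (log2 fold change 1.17, SE 0.0792, edgeR adjusted p = 4.99e-05). The intervals of *Sp110* and *Daxx* ended at 1.64 and 1.35, below those of *Sp100* and *Pml*, which began at 2.07 and 2.02. *Sp100* and *Sp110* are paralogs, and *Sp110* and *Pml* overlap *G530012D18Rik* and *Mir6385* on the opposite strand.

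All 8 genes that act on nucleotides and RNA rose, over a wide range of sizes. *Rsad2* (chr12:26442746-26456452, minus strand) encodes viperin, which makes a chain-terminating nucleotide from CTP. It was counted 7 and 5 times with EV-RV against 870 and 862 times with IRF4-RV, from near the detection limit to 25.7 and 23.7 CPM, and its rise of 134.0-fold (log2 fold change 7.03, SE 0.193, edgeR adjusted p = 1.37e-06) was the largest fitted change among the 38 genes. *Cmpk2* (chr12:26469204-26479837, plus strand), a mitochondrial nucleotide kinase whose gene lies 12751 bases away and is transcribed in the opposite direction, was already at 19.9 and 19.2 CPM with EV-RV and reached 187.4 and 195.9 CPM. Its log2 fold change was 3.29 (SE 0.0834, edgeR adjusted p = 1.14e-06). In these neighbors the IRF4-RV libraries stood far above the EV-RV libraries, from starting levels of 0.0425 ± 0.00835 CPM per kb for *Rsad2* and 4.70 ± 0.11 for *Cmpk2* (SD, n = 2 each). *Samhd1*, which breaks down deoxynucleotides, went from 59.9 and 59.6 to 129.1 and 129.0 CPM (log2 fold change 1.11, edgeR adjusted p = 4.71e-05).

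*Isg20*, an exonuclease for single-stranded RNA, went from 12.9 and 13.6 to 40.9 and 49.6 CPM (log2 fold change 1.77, SE 0.119, edgeR adjusted p = 4.9e-05). *Eif2ak2*, the kinase PKR that stops translation on sensing double-stranded RNA, was at 33.1 and 21.8 CPM with EV-RV against 76.0 and 70.3 CPM with IRF4-RV. Its EV-RV replicates were further apart than those of most members, yet both lay below the IRF4-RV libraries (log2 fold change 1.41, SE 0.173, edgeR adjusted p = 0.00108). *Adar*, which edits adenosine to inosine in double-stranded RNA, went from 66.2 and 60.9 to 153.4 and 150.3 CPM (log2 fold change 1.26, edgeR adjusted p = 3.81e-05). *Znfx1*, a helicase that senses viral RNA, had a log2 fold change of 1.15 (SE 0.139, edgeR adjusted p = 0.000979). *Samd9l*, a restriction factor of poxviruses, was at 14.9 and 10.7 CPM with EV-RV against 24.4 and 27.2 CPM with IRF4-RV, a log2 fold change of 1.01 (SE 0.157, edgeR adjusted p = 0.00332). The groups did not overlap in any of the 8 genes. *Eif2ak2*, *Adar* and *Znfx1* overlap genes on the opposite strand.

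The MX proteins are dynamin-like GTPases that trap viral ribonucleoproteins, and both genes were almost silent with EV-RV. GENCODE M21 lists *Mx2* as a polymorphic pseudogene, and whether these cells carry an intact copy of *Mx1* or of *Mx2* was not checked. *Mx1* (chr16:97447035-97462907, minus strand) was counted 0 times and 1 time with EV-RV against 47 and 33 times with IRF4-RV. Taken against 3 counts in each EV-RV library, it was at least 12.4-fold higher (edgeR adjusted p = 0.00174). *Mx2*, its paralog 72400 bases away, had 4 and 4 counts with EV-RV against 98 and 102 with IRF4-RV, a rise of 23.1-fold (log2 fold change 4.49, SE 0.367, edgeR adjusted p = 0.000143). Although both rose steeply, their levels stayed low, at 0.303 ± 0.0898 and 0.787 ± 0.018 CPM per kb with IRF4-RV (SD, n = 2 each).

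*Ifi27* and *Ifi27l2a*, a pair of related genes for small mitochondrial membrane proteins, lie 1927 bases apart on opposite strands of chromosome 12 and moved in opposite directions. *Ifi27* (chr12:103434211-103440239, plus strand) was at 263.4 and 289.1 CPM with EV-RV against 164.2 and 180.5 CPM with IRF4-RV. It fell by 0.68 on the log2 scale (SE 0.0843, 95% interval -0.88 to -0.48, edgeR adjusted p = 0.00113), and remained between -0.76 and -0.61 when each library was left out in turn. *Ifi27l2a* (chr12:103442167-103443680, minus strand) was at 23.1 and 25.2 CPM with EV-RV against 134.1 and 148.0 CPM with IRF4-RV. It rose by 2.55 on the log2 scale (SE 0.0941, edgeR adjusted p = 2.84e-06). The groups overlapped in neither gene, and per length the 2 changed places, from 188 and 52.2 CPM per kb to 118 and 305 CPM per kb.

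The other genes of this set, 10 interferon-induced genes and signaling partners, were all called higher. *Ifi44* rose most, from 0.839 and 0.951 CPM to 20.6 and 23.2 CPM, or 24.5-fold (log2 fold change 4.61, SE 0.158, edgeR adjusted p = 2.35e-06). *Rtp4*, which chaperones membrane receptors and overlaps *Gm45338*, went from 9.94 and 11.7 to 48.5 and 55.8 CPM (log2 fold change 2.27, edgeR adjusted p = 1.95e-05). *Xaf1*, named for its binding to the apoptosis inhibitor XIAP, went from 10.0 and 10.1 to 40.4 and 46.1 CPM (log2 fold change 2.10, edgeR adjusted p = 1.52e-05). In these genes even the lower IRF4-RV library was several times the higher EV-RV library. *Shisa5*, a membrane protein of the endoplasmic reticulum, went from 81.1 and 84.3 to 266.3 and 279.4 CPM (log2 fold change 1.72, edgeR adjusted p = 7.14e-06). *Tor3a*, an ATPase of the torsin family, went from 50.8 and 53.0 to 144.9 and 163.3 CPM (log2 fold change 1.57, edgeR adjusted p = 2.47e-05). *Ifi35* and *Nmi* encode proteins that bind each other. *Ifi35* went from 30.0 and 31.6 to 77.3 and 90.4 CPM (log2 fold change 1.45, 95% interval 1.21 to 1.68), and *Nmi* from 30.5 and 34.3 to 55.4 and 59.1 CPM (log2 fold change 0.82, interval 0.60 to 1.04). *Epsti1* had the smallest rise of the genes called, from 46.0 and 43.8 to 66.2 and 69.2 CPM (log2 fold change 0.59, SE 0.0821, edgeR adjusted p = 0.00188).

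*Phf11b* and *Phf11d*, neighboring paralogs for PHD finger proteins on chromosome 14, differed in level and in how firmly they were called. *Phf11b* went from 11.9 and 11.2 to 32.3 and 35.9 CPM (log2 fold change 1.56, SE 0.105, edgeR adjusted p = 4.9e-05). *Phf11d* was at 1.89 and 1.55 CPM with EV-RV against 2.77 and 4.50 CPM with IRF4-RV (log2 fold change 1.08, SE 0.289, edgeR adjusted p = 0.0324). Its groups did not overlap, but the call was lost without the second EV-RV library (0.95, edgeR adjusted p = 0.118) and without the second IRF4-RV library (0.69, edgeR adjusted p = 0.155). Reads could have been shared between these paralogs.

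Of the lectin-related genes and the lysosomal reductase, 2 of 3 rose. *Lgals9*, the lectin galectin-9, was among the most abundant members and went from 355.4 and 377.4 to 748.5 and 765.1 CPM (log2 fold change 1.05, SE 0.073, edgeR adjusted p = 5.79e-05). *Lgals3bp*, a secreted glycoprotein that binds galectins, went from 12.3 and 13.4 to 20.2 and 21.9 CPM (log2 fold change 0.71, SE 0.107, edgeR adjusted p = 0.00274). In both, each IRF4-RV library lay above each EV-RV library. *Ifi30*, the thiol reductase that unfolds antigens in lysosomes, is listed in GENCODE M21 as a processed transcript and was counted 133 and 164 times with EV-RV against 161 and 133 times with IRF4-RV. The groups overlapped, and its log2 fold change was -0.13 with an interval from -0.62 to 0.37 (edgeR adjusted p = 0.721), which ends below the estimates for *Lgals9* and *Lgals3bp*.

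The genes that carry interferon signals were compared as a list of 49, of which 28 could be tested. Of these 28, 14 were higher, 1 was lower and 13 were not called, beside 16.0% higher and 13.7% lower of all genes tested, and their median log2 fold change was 0.27. Type I, type II and type III interferons were hardly detected: 17 of 21 ligand genes were at 0 in every library, and the 21 together had 3 and 14 counts with EV-RV against 37 and 38 with IRF4-RV. Most counts with IRF4-RV were from *Ifng*, the type II interferon, which had 0 and 0 counts with EV-RV against 29 and 35 with IRF4-RV. It was at least 9.82-fold higher (edgeR adjusted p = 0.00182). *Ifnb1*, the type I interferon that many cells make first, had 0 and 3 counts with EV-RV against 3 and 0 with IRF4-RV, so that neither a rise nor a fall was detectable at this depth.

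Of 6 receptor chains, 5 were called higher, among them both chains of the type I receptor, *Ifnar1* (log2 fold change 1.02, edgeR adjusted p = 0.000675) and *Ifnar2* (0.69, edgeR adjusted p = 0.00116). The chains of the type III receptor, *Ifnlr1* and *Il10rb*, rose by 1.10 and 0.85. Of the type II receptor, *Ifngr2* rose by 0.41 (edgeR adjusted p = 0.0164), a call lost without the first IRF4-RV library (0.33, edgeR adjusted p = 0.121), and *Ifngr1* was at 0.07 (edgeR adjusted p = 0.609). *Stat2*, which carries the signal to the nucleus, rose by 1.88 (edgeR adjusted p = 3.2e-05). The receptor kinases *Jak1*, *Jak2* and *Tyk2* were not called, at 0.02, 0.31 and 0.18, although *Jak2* was called without the first EV-RV library (0.47, edgeR adjusted p = 0.0363) and without the second IRF4-RV library (0.35, edgeR adjusted p = 0.0901).

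Among the interferon regulatory factors other than *Irf4*, *Irf7* rose by 1.93, *Irf9* by 1.72, *Irf1* by 1.38 and *Irf2* by 0.61 (the largest edgeR adjusted p was 0.00171). *Irf5* was called higher at 0.27 (edgeR adjusted p = 0.0550), and this call was lost when any 1 of the 4 libraries was left out (edgeR adjusted p from 0.107 to 0.31) or when only library size was used for scaling (edgeR adjusted p = 0.178). *Irf8* fell by 0.32 (edgeR adjusted p = 0.0152), a call lost without the second IRF4-RV library (-0.30, edgeR adjusted p = 0.134), and *Irf3* was not called. Of 9 feedback inhibitors, 1 (11.1%) was called higher, near the 16.0% of all genes tested. This was *Ptpn1*, at 0.25 (edgeR adjusted p = 0.0480). That call was lost without the first EV-RV library (0.20, edgeR adjusted p = 0.162), without the first IRF4-RV library (0.19, edgeR adjusted p = 0.349) and without the second (0.28, edgeR adjusted p = 0.164), and with library size only (0.16, edgeR adjusted p = 0.134). The inhibitors *Socs1* and *Socs3* were at -0.05 and 0.08, with intervals from -0.29 to 0.19 and from -0.14 to 0.30. By contrast *Usp18*, the inhibitor counted here with ISG15, rose 48.7-fold.

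**Figure D5:**
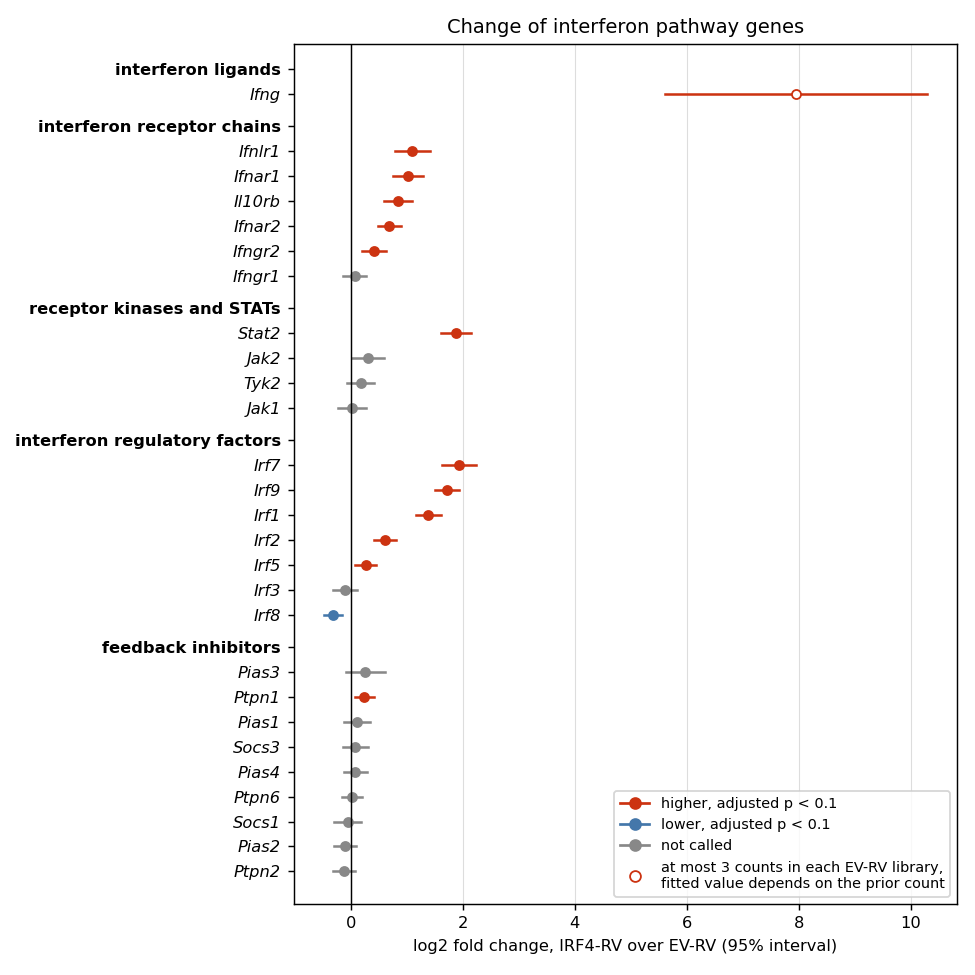
Log2 fold change of interferon pathway genes tested, IRF4-RV over EV-RV, with 95% intervals from edgeR; red genes were called higher, the blue one lower, grey ones not called, and the hollow point (*Ifng*) depends on the prior count. *Stat2*, *Irf7* and *Irf9* lie between 1.72 and 1.93, whereas the kinases and all feedback inhibitors lie below 0.32.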

How the data were processed

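Bulk RNAseq was analyzed from 2 EV-RV and 2 IRF4-RV libraries, grouped by the sample labels. The authors deposited counts per gene without normalization. Per the submitters' processing notes and the study's methods, FastQC (0.11.2), STAR (2.4.0j), GRCm38, featureCounts and DESeq2 (1.22.1) were used on libraries from the NEBNext Ultra II kit. Whether strand was used, and how multiply aligned reads were treated, is not given in the sources used here, so counts of overlapping genes and paralogs are uncertain. Symbols, coordinates and exon lengths came from GENCODE M21, which matched 52083 of 55359 identifiers and all 38 members. The 3276 others held 0.203% to 0.486% of the counts of a library.

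Genes passing filterByExpr were tested in R 4.3.3 with edgeR 4.0.16 (TMM factors, quasi-likelihood F test, Benjamini-Hochberg adjustment over 14637 genes, FDR 0.1, no block). CPM use the TMM factors, which ranged from 0.963 to 1.05. Genes with at most 3 counts in each EV-RV library were given lower bounds. The procedure was tested on simulated data in which few genes changed and each gene varied on its own. Such data cannot check the scaling under broad changes, or a shift shared by many genes of a library. Replicates differed by more than sampling noise (chi-square per degree of freedom 14.1 and 13.1) and were kept separate. The labels do not say that a replicate number marks a shared batch, and with 2 pairs the numbers were not taken to pair the libraries.

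Every member was described, pathway genes were named where called (those named though not called were chosen after their values were seen, and 1 gene of the list is counted but not reported here), and promoters were printed for up to 6 genes called higher with an ISRE and the largest rise. The members and gene lists were chosen with earlier results of these data known. The alternatives were DESeq2 1.42.0, its size factors, library size only, 2 other filters, an FDR of 0.05, a replicate block and leaving out each library.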

Additional observations from a re-analysis of the deposited data

How the results depend on the processing

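Over all settings run, 32 to 34 members were called higher and 1 lower. DESeq2 gave 33 higher and 1 lower, the same call for each of the 38 genes. With library size only, 37.8% of all called genes were higher, against 53.8%, the median over all genes was -0.0831, the median of the members 1.34, members beyond 1 numbered 24 and *Ifitm2* was at -0.044. Requiring CPM above 1 in at least 2 libraries left 36 members tested. Testing all genes with at least 1 count called *Ifitm3* (edgeR adjusted p = 8.19e-07). With the ISRE sought before the start alone, 7 members matched. Without 1 library in turn, the median of the members ranged from 1.30 to 1.41, the pathway genes called higher from 11 to 13 (14 with all libraries, 12 with library size only), those called lower from 0 to 1, *Ifitm2* from -0.0082 to 0.0944, *Ifi30* from -0.35 to 0.0773 and *Ifitm3* from -0.43 to 2.51. Where 1 library remained in a group, it was assumed to vary like the other group. With the replicate block, 34 members were higher, 1 lower and the median was 1.42. *Ifitm3* (1.39, edgeR adjusted p = 7.26e-05), *Tyk2* (0.18, edgeR adjusted p = 0.0495) and *Jak2* (0.32, edgeR adjusted p = 0.00375) were then called. Deviations of same-numbered libraries correlated at 0.284 across genes. Calls over all genes rose from 4349 to 6394 with the block, and 16 pathway genes were higher. The cause of these shifts was not tested. Genes near 3 counts with EV-RV, such as *Mx1*, are limited by depth.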
